A study of Mus musculus with 11 samples.

Results

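Expression of 10 genes associated with monocytes was followed in mouse common lymphoid progenitors (CLPs), marrow cells that give rise to lymphocytes. They were F13a1, Pros1, Ms4a6c, Anxa3, Cd33, Lyz2, Fcgr3, Cst3, Itgax and Sirpa, 10 of the 22180 genes that the arrays represent. The genes came from a fixed list, and each was read from its probe set with a single gene symbol and the highest mean over all 11 arrays. The list was selected on measured values of these same arrays, but which comparison it was drawn from is not recorded. F13a1, Pros1 and Cd33 were known to stand out in the CpG response of Ly-6D- CLPs, so that response was treated as the choosing comparison, and its counts past a threshold are given as a description that supports nothing. The tests of the populations' differences use Ly-6D- arrays of that comparison, so they are not independent of the choice. They are less so still if those differences also guided it.

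The CLPs came from C57BL/6 mice given PBS or 50 µg of CpG1826 every other day and were sorted on day 10. CpG1826 is a synthetic DNA oligonucleotide that activates Toll-like receptor 9. Cells were sorted by Ly-6D, a surface protein that CLPs gain as they enter the B lineage. Expression was measured on 2 arrays of Ly-6D+ CLPs after PBS, 3 of Ly-6D+ CLPs after CpG, 3 of Ly-6D- CLPs after PBS and 3 of Ly-6D- CLPs after CpG. All mice were of the same strain, and the labels name no genetic change in any group. The labels used here give neither the age of the mice nor whether replicates, or the populations of one replicate, came from separate animals or pools. The p-values therefore reflect the spread among arrays, which may be technical.

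Monocytes and macrophages are phagocytes of the myeloid lineage. They carry Fc receptors, integrins and inhibitory receptors on the surface, fill their lysosomes and secretions with enzymes such as lysozyme, and make several coagulation proteins. Monocytes and conventional dendritic cells share much of this equipment, and progenitors can transcribe some of it at a low level before they commit to a lineage. Lymphoid commitment normally goes with the loss of such transcripts. In sorted bulk samples such as these, fewer cells of a type and less RNA per cell cannot be told apart.

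Ly6d itself checked the sort. Its log2 level was 12.58 ± 0.02 (SD, n = 2) and 12.57 ± 0.03 (n = 3) in the PBS and CpG arrays of Ly-6D+ CLPs, and 8.23 ± 0.24 (n = 3) and 7.72 ± 0.32 (n = 3) in those of the Ly-6D- population. Il7r, the interleukin-7 receptor chain that defines CLPs, had group means of 9.25 to 10.74. Of the defining monocyte genes, Csf1r, the M-CSF receptor, had group means of 6.69 to 8.68, whereas Cd14, the lipopolysaccharide co-receptor, stayed between 3.32 and 3.68, below the median of all gene means (4.33). Levels of different probe sets are not comparable in amount, and detection values were not used here.

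RefSeq (GRCm38.p6) promoter windows of 300 bases, from 250 bases before to 50 after a start site, were found for 8 of the 10 genes, all but Anxa3 and Sirpa. The windows of the 4 genes whose Ly-6D- response to CpG was past the threshold used below are shown. These genes come from the choosing comparison, so nothing is read from a difference between their windows. Capitals mark AGGAAGT, the core that PU.1 and other ETS factors bind (with a G before it, GAGGAAGT, the PU.1-type form, which contains it), and TTCNNNGAA, the GAS-type element that STAT factors bind. Both strands were searched, and AGGAAGT was added after the windows had been seen.
F13a1, the downstream of its 2 start sites, chr13:37049164-37049463, minus strand: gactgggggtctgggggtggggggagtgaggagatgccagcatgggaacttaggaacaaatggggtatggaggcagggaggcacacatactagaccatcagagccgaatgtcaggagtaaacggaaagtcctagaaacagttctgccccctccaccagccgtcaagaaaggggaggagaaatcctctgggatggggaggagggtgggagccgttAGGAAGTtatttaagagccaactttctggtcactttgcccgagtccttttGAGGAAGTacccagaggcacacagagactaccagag
Pros1, chr16:62854057-62854356, plus strand: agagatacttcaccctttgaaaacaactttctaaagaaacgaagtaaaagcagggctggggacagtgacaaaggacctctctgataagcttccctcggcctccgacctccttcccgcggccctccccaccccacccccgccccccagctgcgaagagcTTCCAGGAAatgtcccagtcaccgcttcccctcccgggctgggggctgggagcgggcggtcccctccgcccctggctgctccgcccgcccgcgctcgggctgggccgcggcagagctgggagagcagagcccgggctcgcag
Ms4a6c, chr19:11469118-11469417, plus strand: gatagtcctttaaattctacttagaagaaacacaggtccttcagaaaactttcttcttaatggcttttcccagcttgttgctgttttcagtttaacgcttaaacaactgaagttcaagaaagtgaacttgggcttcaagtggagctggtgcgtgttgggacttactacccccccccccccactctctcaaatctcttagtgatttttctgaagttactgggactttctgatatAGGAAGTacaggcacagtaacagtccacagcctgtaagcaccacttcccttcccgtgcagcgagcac
Cd33, chr7:43533122-43533421, minus strand: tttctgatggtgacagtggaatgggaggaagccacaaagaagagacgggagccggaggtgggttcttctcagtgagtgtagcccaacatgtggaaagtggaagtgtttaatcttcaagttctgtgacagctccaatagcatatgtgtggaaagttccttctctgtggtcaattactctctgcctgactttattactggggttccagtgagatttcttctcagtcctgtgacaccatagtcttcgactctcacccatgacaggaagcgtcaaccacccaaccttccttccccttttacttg

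The F13a1 window held AGGAAGT at base 215 and GAGGAAGT at base 265, just past the start site. The window of the upstream F13a1 start site held neither motif. Ms4a6c held AGGAAGT at base 234, just ahead of its start site, and Pros1 held a GAS-type element at base 159, while the Cd33 window held none of these letters. Among the other members, only Lyz2 held AGGAAGT, on the opposite strand, and no member window held TTGCNNCAA, a C/EBP-type element. AGGAAGT was thus in the windows of 3 of 8 members, against 10.7% of 27025 genes, GAGGAAGT in 1 of 8 against 3.69%, TTCNNNGAA in 1 of 8 against 9.55% and TTGCNNCAA in 0 of 8 against 2.38%. A match is a description of the sequence and not a bound site. Because AGGAAGT was added after the windows had been seen, its share among the members supports nothing.

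The third replicates of the CpG groups stood apart from the others. On the second principal component of all genes, Ly-6D- CpG arrays had scores of 22.7, 19.4 and -0.7 in replicates 1 to 3, against -22.6 to -15.2 for Ly-6D- PBS arrays, and Ly-6D+ CpG arrays had scores of 11.6, 15.5 and -0.4, against -9.0 and -4.3 for Ly-6D+ PBS arrays. Values without these arrays are given beside many of the results they bear on.

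**Figure D1:**
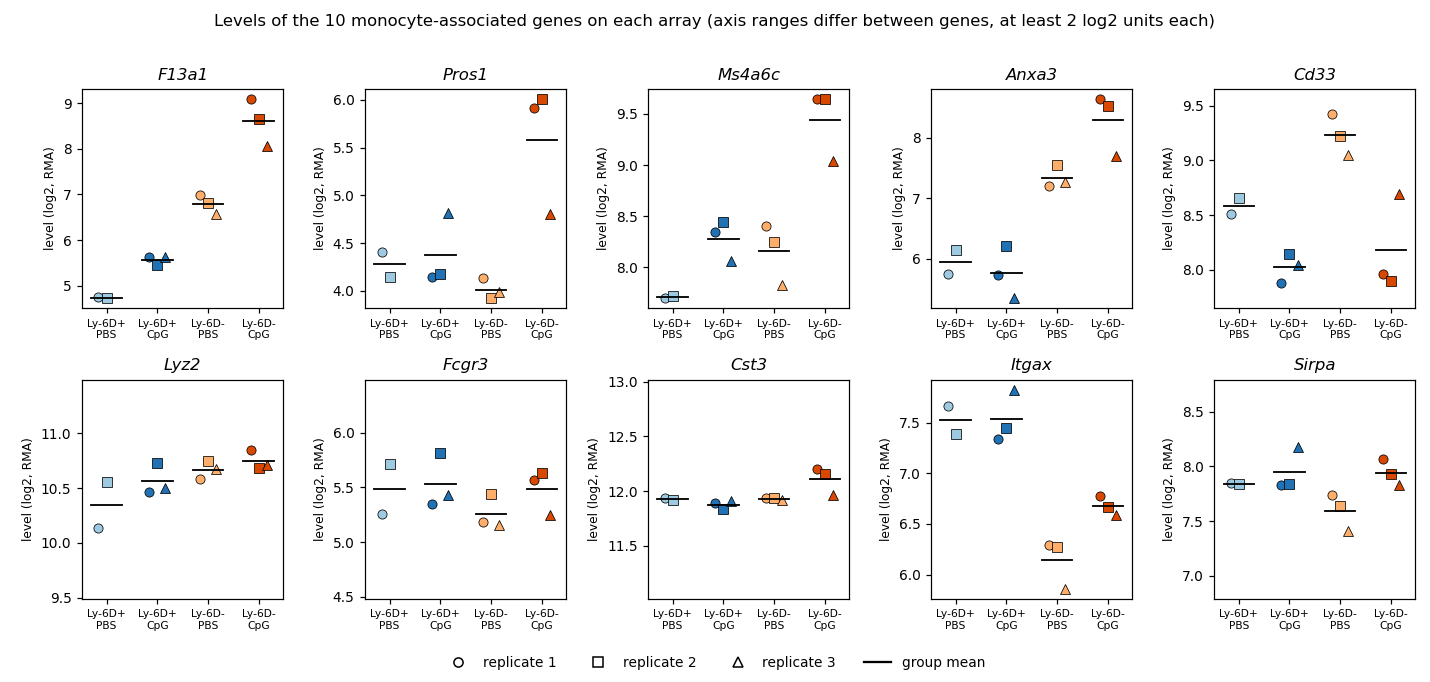
Level of each of the 10 genes (log2, RMA) on every array, by population and treatment; symbols give the replicate number and lines the group means, and the axes differ between genes but span at least 2 log2 units. F13a1 separates all 4 groups (group means 4.74, 5.57, 6.79 and 8.60 from left to right), whereas Lyz2 and Fcgr3 overlap in every neighbouring pair of groups.

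F13a1 encodes the A subunit of coagulation factor XIII, the transglutaminase that cross-links fibrin, and is made by monocytes, macrophages and megakaryocytes. Its level was 4.75 and 4.74 in Ly-6D+ CLPs after PBS and 5.62, 5.47 and 5.63 in the same population after CpG. In Ly-6D- CLPs it was 6.98, 6.81 and 6.58 after PBS and 9.09, 8.65 and 8.06 after CpG. The 4 groups followed each other without overlap, Ly-6D+ PBS lowest and Ly-6D- CpG highest, over a range of 4.35 log2 units. Of the 10 genes it alone had no overlap between any neighbouring groups. How many of all genes separate in this way was not counted, so nothing more is read from this order.

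Pros1 encodes protein S, an anticoagulant plasma protein that also bridges dying cells to the TAM receptors of phagocytes. It stayed between 3.92 and 4.41 on all PBS arrays of both populations and at 4.14, 4.17 and 4.82 in Ly-6D+ CLPs after CpG. In Ly-6D- CLPs after CpG it reached 5.91 and 6.01 in replicates 1 and 2, but only 4.80 in replicate 3, which overlapped the highest Ly-6D+ array. The high level was thus seen on 2 of the 11 arrays.

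Ms4a6c, a 4-transmembrane protein of the MS4A family expressed on myeloid cells, was 7.70 and 7.72 in Ly-6D+ CLPs after PBS, and 8.34, 8.44 and 8.06 after CpG. In the Ly-6D- population it went from 8.40, 8.25 and 7.83 to 9.65, 9.65 and 9.04. It was higher after CpG in both populations without overlap, and Ly-6D+ CLPs after CpG overlapped Ly-6D- CLPs after PBS.

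Anxa3 encodes annexin A3, a calcium-dependent phospholipid-binding protein of granulocytes and monocytes. Its level was 5.75 and 6.14 after PBS and 5.74, 6.22 and 5.35 after CpG in Ly-6D+ CLPs. In the Ly-6D- population it was 7.20, 7.55 and 7.27 after PBS and 8.64, 8.52 and 7.70 after CpG. The populations did not overlap under either treatment, and the treatments overlapped only in Ly-6D+ CLPs.

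Cd33 and Sirpa are surface receptors of myeloid cells, a sialic-acid-binding lectin and the receptor for the CD47 signal respectively. Cd33 was the gene that ran the other way. It fell from 9.42, 9.22 and 9.05 to 7.96, 7.89 and 8.69 in Ly-6D- CLPs, and was 8.51 and 8.66 after PBS against 7.88, 8.14 and 8.04 after CpG in Ly-6D+ CLPs. After CpG the levels of the populations overlapped, with replicate 3 of Ly-6D- CpG again nearest to the PBS arrays. Sirpa was 7.74, 7.64 and 7.40 in Ly-6D- CLPs after PBS and 8.07, 7.93 and 7.83 after CpG, and in Ly-6D+ CLPs it was 7.84 and 7.84 after PBS and 7.83, 7.84 and 8.18 after CpG. Ly-6D- CLPs after PBS were below all other groups for Sirpa.

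Itgax encodes CD11c, an integrin chain of dendritic cells and monocytes, and was the one member with every Ly-6D+ array above every Ly-6D- array under both treatments. It was 7.67 and 7.39 after PBS and 7.33, 7.45 and 7.83 after CpG in Ly-6D+ CLPs, against 6.29, 6.28 and 5.86 after PBS and 6.78, 6.67 and 6.59 after CpG in Ly-6D- CLPs. The populations did not overlap, and neither did the treatments within Ly-6D- CLPs. Fcgr3, the activating low-affinity receptor for IgG, lay between 5.15 and 5.81 on all 11 arrays, and every neighbouring pair of groups overlapped.

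Lyz2, the lysozyme of myeloid cells, and Cst3, the secreted cysteine protease inhibitor cystatin C, moved little. Lyz2 lay between 10.13 and 10.85 on all arrays, with overlap between neighbouring groups. Lyz1, its close paralogue, has a probe set of its own, with group means between 3.83 and 4.63, but cross-hybridisation between the copies was not tested. Cst3 was 12.20, 12.16 and 11.97 in Ly-6D- CLPs after CpG against 11.94, 11.94 and 11.91 after PBS. In Ly-6D+ CLPs it was 11.89, 11.84 and 11.91 after CpG against 11.94 and 11.92 after PBS, so it was higher after CpG in one population and lower in the other, each time without overlap. The second Cst3 probe set gave the same order, 11.42, 11.30 and 11.28 against 11.09, 11.16 and 11.21 in Ly-6D- CLPs and 11.07, 11.09 and 11.01 against 11.16 and 11.16 in Ly-6D+ CLPs. The difference between the 2 responses of Cst3 did not pass the test below.

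**Figure D2:**
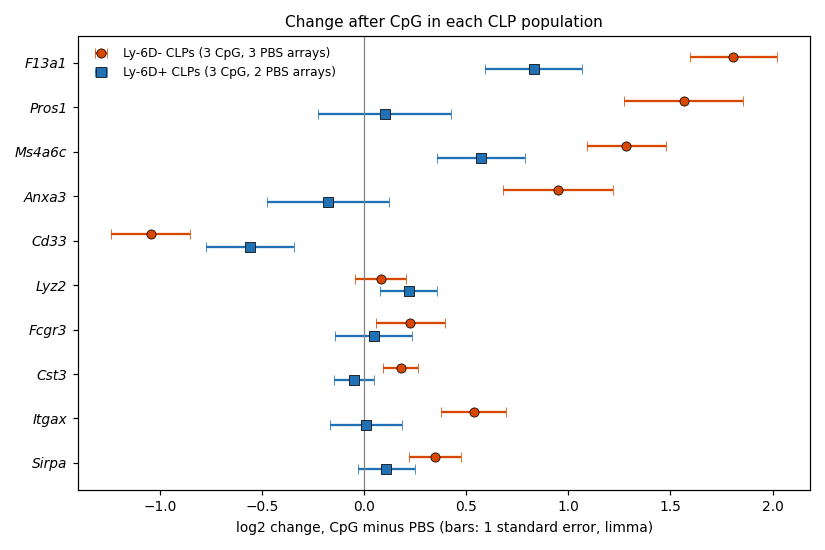
Log2 change after CpG (CpG minus PBS) of each gene in Ly-6D- CLPs (circles) and Ly-6D+ CLPs (squares), with bars of 1 standard error from limma. F13a1 changed by 1.81 and 0.83, Pros1 by 1.56 and 0.10, and Cd33 by -1.05 and -0.56.

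What CpG did in Ly-6D- CLPs is described first, because the members had stood out there. F13a1 was 3.50-fold higher (log2 change 1.81, SE 0.21), Pros1 2.96-fold (1.56, SE 0.29) and Ms4a6c 2.43-fold (1.28, SE 0.19), and Cd33 was 2.07-fold lower (-1.05, SE 0.19). These 4 genes, 3 higher and 1 lower, were past a limma adjusted p of 0.05 over all genes, as were 0.546% of all genes (0.302% higher and 0.243% lower), and nothing is read from this count. Anxa3 (0.95, SE 0.27), Itgax (0.54, SE 0.16), Sirpa (0.35, SE 0.13), Fcgr3 (0.23, SE 0.17), Cst3 (0.18, SE 0.09) and Lyz2 (0.08, SE 0.13) were not past it. CpG and PBS arrays were fully separate for 8 of the 10 genes, 7 higher and 1 lower, where they did not overlap for 15.7% of all genes (8.5% higher and 7.2% lower). The median log2 change of the 10 genes was 0.44, against -0.00 for all genes.

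The response on replicate 3 of Ly-6D- CpG was smaller than the mean of replicates 1 and 2 for all 10 genes, though for Lyz2 replicate 2 (10.68) lay below replicate 3 (10.71). There F13a1 lay 1.27 above the PBS mean, against 2.08 for the mean of replicates 1 and 2, Pros1 0.79 against 1.95, Anxa3 0.36 against 1.25, and Cd33 -0.54 against -1.30. Without that array Pros1 was 3.86-fold and F13a1 4.22-fold higher, and 5 genes were past the threshold, Anxa3 being added. Over all 22180 genes the calls rose from 121 to 309 in that fit. The count of 4 depended on single arrays, as did the number of calls over all genes, whose range is given at the end. It was 2 without replicate 2 or 3 of the Ly-6D+ CpG group or replicate 1 of the Ly-6D- PBS group. It was 1 without replicate 1 of either CpG group, either array of the Ly-6D+ PBS group or replicate 2 of the Ly-6D- PBS group. It was 0 without replicate 2 of the Ly-6D- CpG group, without replicate 3 of the Ly-6D- PBS group, or with the Ly-6D+ arrays kept out of the fit.

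The Ly-6D+ arrays entered neither mean of that comparison, although they share its estimate of the spread, and the CpG response of Ly-6D+ CLPs was tested. F13a1 was higher on all 3 CpG arrays than on both PBS arrays, a 1.78-fold difference (log2 change 0.83, SE 0.24, 95% interval 0.30 to 1.36) that did not pass the test over all genes (limma adjusted p = 0.484). Ms4a6c had a change of 0.57 (SE 0.22, adjusted p = 0.669) and Cd33 one of -0.56 (SE 0.22, adjusted p = 0.690), each in the direction seen in Ly-6D- CLPs and without overlap of the arrays. Without replicate 3 of Ly-6D+ CpG the changes were 0.80 for F13a1 (limma adjusted p = 0.537), 0.68 for Ms4a6c (0.537) and -0.57 for Cd33 (0.694). Pros1 differed by less than its error (0.10, SE 0.33, 95% interval -0.62 to 0.82, adjusted p = 0.987), as did Anxa3 (-0.18, SE 0.30, adjusted p = 0.979) and Itgax (0.01, SE 0.18, adjusted p of 1). By limma 0 of the 10 genes passed, where 0.0271% of all genes did. An unadjusted limma p under 0.05 was found for 3, F13a1, Ms4a6c and Cd33, which ranked 253, 778 and 841 of 22180 genes by p. The share of all genes below that value was not counted, so nothing is read from these 3. The arrays did not overlap for 4 of the 10, 2 higher and 2 lower, where this held for 20.4% of all genes (10.7% higher and 9.76% lower). The median log2 change of the 10 genes was 0.07, against 0.00 for all genes.

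The difference between the 2 CpG responses was tested too, although it contains the Ly-6D- comparison. The response in Ly-6D+ CLPs minus that in Ly-6D- CLPs was -1.46 for Pros1 (SE 0.44, 95% interval -2.43 to -0.50, limma adjusted p = 0.622), -1.13 for Anxa3 (SE 0.40, adjusted p = 0.701), -0.98 for F13a1 (SE 0.32, adjusted p = 0.663) and -0.71 for Ms4a6c (SE 0.29, adjusted p = 0.766). It was -0.23 for Cst3 (SE 0.13, adjusted p = 0.827) and 0.49 for Cd33 (SE 0.29, adjusted p = 0.840). None of the 10 genes passed, and neither did any of the 22180 genes (0%). The first 4 had an unadjusted limma p under 0.05 and ranked 239 (Pros1), 572 (Anxa3), 380 (F13a1) and 937 (Ms4a6c) of all genes by p. The share of all genes below that value was not counted, so nothing is read from these 4. Without replicate 3 of Ly-6D- CpG the difference was -1.85 for Pros1 (limma adjusted p = 0.152) and -1.42 for Anxa3 (0.300). It was -1.25 for F13a1 (0.180) and -0.91 for Ms4a6c (0.402), and no gene passed there either. The responses of the populations are therefore not shown to differ for any of these genes.

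**Figure D3:**
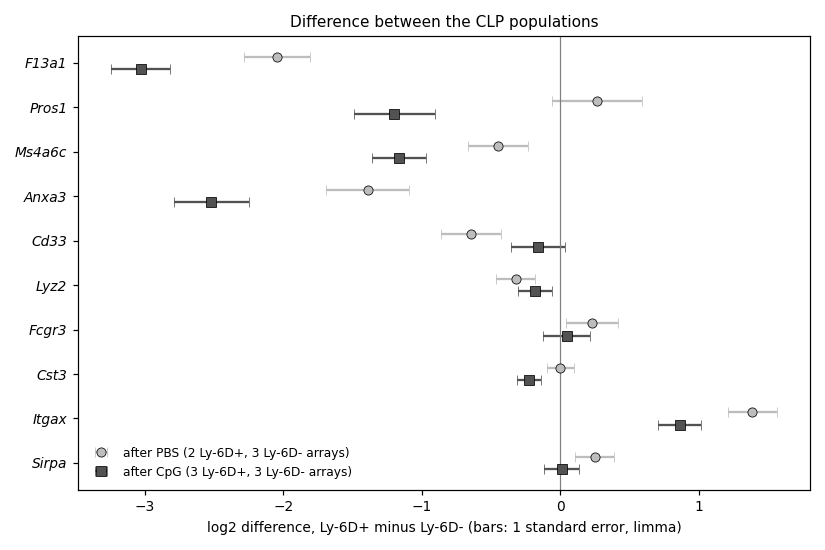
Log2 difference between the populations (Ly-6D+ minus Ly-6D-) of each gene after PBS (light circles) and after CpG (dark squares), with bars of 1 standard error from limma. F13a1 (-2.05 and -3.03) and Anxa3 (-1.39 and -2.52) were lower in Ly-6D+ CLPs and Itgax (1.38 and 0.86) higher.

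The next question was how the populations differed under each treatment. These comparisons share Ly-6D- arrays with the one in which the genes had stood out, so their p-values and counts are not independent of the choice. Choosing genes for high levels on the Ly-6D- CpG arrays favours a negative difference after CpG. After PBS, F13a1 was 4.14-fold lower in Ly-6D+ than in Ly-6D- CLPs (log2 difference -2.05, SE 0.24, limma adjusted p = 0.00148). Anxa3 was 2.62-fold lower (-1.39, SE 0.30, adjusted p = 0.0453) and Itgax 2.61-fold higher (1.38, SE 0.18, adjusted p = 0.00241). These were 3 of the 10 genes, 1 higher and 2 lower, where 1.98% of all genes passed (1.18% higher and 0.798% lower). Cd33 (-0.65, SE 0.22, adjusted p = 0.217), Ms4a6c (-0.45, SE 0.22, adjusted p = 0.458) and Lyz2 (-0.32, SE 0.14, adjusted p = 0.393) did not pass, although their arrays did not overlap. In all, 8 of the 10 genes had no overlap, 3 higher and 5 lower, against 26.9% of all genes (12.9% higher and 14% lower). Cst3 had a difference of 0.00 (95% interval -0.22 to 0.22, adjusted p of 1).

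F13a1 and Itgax passed whichever array was left out. The call of Anxa3 after PBS ended in 7 of the 11 cases, without replicate 1 of Ly-6D+ CpG (limma adjusted p = 0.0723), replicate 1 (0.286) or 2 (0.117) of Ly-6D+ PBS, replicate 2 of Ly-6D- CpG (0.0638), or replicate 1 (0.0867), 2 (0.133) or 3 (0.105) of Ly-6D- PBS. Cd33 passed without replicate 3 of Ly-6D- CpG (limma adjusted p = 0.0462).

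After CpG, F13a1 was 8.16-fold lower in Ly-6D+ CLPs (-3.03, SE 0.21, limma adjusted p = 4.09e-05), Anxa3 5.73-fold lower (-2.52, SE 0.27, adjusted p = 6.56e-04) and Ms4a6c 2.24-fold lower (-1.16, SE 0.19, adjusted p = 0.0102). Itgax was 1.81-fold higher (0.86, SE 0.16, adjusted p = 0.0180). These were 4 of the 10 genes, 1 higher and 3 lower, where 2.14% of all genes passed (1.2% higher and 0.938% lower). The arrays did not overlap for 5 of the 10, 1 higher and 4 lower, against 16.9% of all genes (7.89% higher and 9.04% lower). Pros1 had a difference of -1.20 (SE 0.29, adjusted p = 0.0711) and passed without replicate 3 of Ly-6D- CpG (-1.59, adjusted p = 0.00325). Cd33, -0.65 after PBS, had a difference of -0.16 after CpG (SE 0.19, 95% interval -0.59 to 0.27, adjusted p = 0.809). Sirpa (0.01, SE 0.13) and Fcgr3 (0.05, SE 0.17) differed by less than their errors, and neither passed (adjusted p = 0.991 and 0.947).

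F13a1 and Anxa3 passed after CpG whichever array was left out. Without replicate 3 of Ly-6D- CpG F13a1 was 9.84-fold and Anxa3 7.04-fold lower in Ly-6D+ CLPs, and without replicate 3 of Ly-6D+ CpG the log2 differences were -3.06 and -2.31. The call of Ms4a6c ended without replicate 1 (limma adjusted p = 0.0512) or 2 (0.0562) of Ly-6D- CpG. That of Itgax ended without replicate 3 of Ly-6D+ CpG (limma adjusted p = 0.0592) or replicate 2 (0.0752) or 3 (0.0578) of Ly-6D- CpG. Of the 4 calls 2 were left without replicate 2 of Ly-6D- CpG.

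A wider list of 38 monocyte and macrophage genes, without the members, had 37 measured genes. This list and those below were written with earlier results of these data known. Their counts and p-values are a description and do not back up the results on the members. In Ly-6D- CLPs 35 of the 37 were higher after CpG and 2 lower, with a median log2 change of 0.60 against -0.00 for all genes. The threshold was passed by 4 of them, all higher, where 0.546% of all genes passed (0.302% higher). These were Klf4, a transcription factor of monocyte differentiation (1.34, SE 0.16, limma adjusted p = 0.0101), Ccr2, the chemokine receptor that lets monocytes leave the marrow (1.57, SE 0.19, adjusted p = 0.0101), the calcium-binding protein S100a4 (0.64, SE 0.10, adjusted p = 0.0300) and Ly6c2, which encodes the antigen of inflammatory monocytes (1.09, SE 0.17, adjusted p = 0.0300). All 4 also passed without replicate 3 of Ly-6D- CpG (0.65 to 1.82). In that fit the list had 12 genes past the threshold, and 309 of all 22180 genes were past it. The 4 passed too without replicate 3 of Ly-6D+ CpG, where the list had 6. In Ly-6D+ CLPs 32 of the 37 had a positive change and 5 a negative one, with a median of 0.20, but 0 passed, and S100a4 came nearest (0.61, SE 0.11, adjusted p = 0.151). There 1 passed without replicate 3 of Ly-6D- CpG and 2 without replicate 3 of Ly-6D+ CpG, among them the lectin receptor Clec4a3 (1.77, limma adjusted p = 0.0139). The same list was described between the populations. After PBS 4 genes passed as higher in Ly-6D+ CLPs (Trem1 1.84, Cybb 1.25, Pld4 1.04 and Irf8 0.72) and 2 as lower (Ccr2 -1.25 and Cebpa -1.17). After CpG 1 passed as higher and 7 as lower, among them Ccr2 (-1.91), Csf1r (-1.69), Cebpa (-1.53) and Klf4 (-1.30). These counts were 0 and 10 without replicate 3 of Ly-6D- CpG, and 1 and 5 without replicate 3 of Ly-6D+ CpG. The list median was -0.06 after PBS and -0.30 after CpG. The latter was -0.51 without replicate 3 of Ly-6D- CpG and -0.195 without replicate 3 of Ly-6D+ CpG.

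Family relatives gave 28 measured genes. Fcgr4, another activating IgG receptor (1.36, SE 0.23, limma adjusted p = 0.0405), and Anxa5, annexin A5 (0.77, SE 0.11, adjusted p = 0.0289), were the 2 that passed in Ly-6D- CLPs after CpG, and both passed without replicate 3 of either CpG group, while in Ly-6D+ CLPs 0 passed and these 2 had changes of 0.98 and 0.67 (adjusted p = 0.417 and 0.179). Fcgr3, with the smaller change of 0.23 in Ly-6D- CLPs, was not tested against Fcgr4. Of 15 binding partners and signalling chains, 0 passed after CpG in either population. Fcer1g, the signalling chain that Fcgr3 needs, had a change of 0.54 in Ly-6D- CLPs (SE 0.11, adjusted p = 0.0609) and passed without replicate 3 of Ly-6D- CpG (0.60, adjusted p = 0.0469). Between the populations after PBS, the cathepsins Ctsb (1.26) and Ctsl (1.22), which cystatin C can inhibit, and Fcer1g (0.60) were higher in Ly-6D+ CLPs, and Procr, the endothelial protein C receptor, was lower (-1.50), the 4 of 15 that passed.

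**Figure D4:**
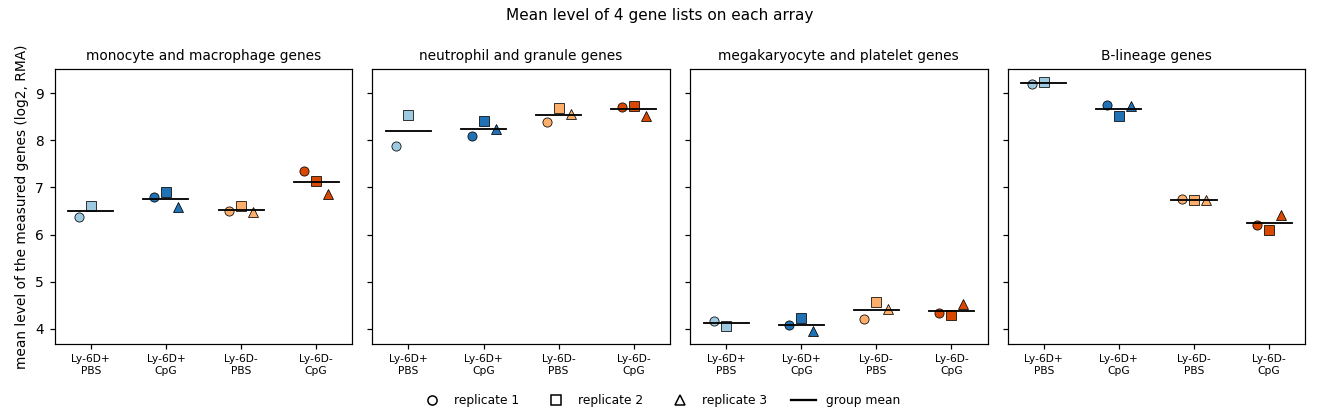
Mean level (log2, RMA) of the measured genes of 4 lists on each array, by population and treatment; symbols give the replicate number and lines the group means. The monocyte and macrophage list lies at 6.85 to 7.35 in Ly-6D- CLPs after CpG, overlapping the 6.58 to 6.91 of Ly-6D+ CLPs after CpG, and the B-lineage list separates the populations.

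Markers of other cells were read beside these changes. The mean level of the monocyte and macrophage list was 6.85 to 7.35 on the Ly-6D- CpG arrays, 6.47 to 6.61 on the Ly-6D- PBS arrays, 6.58 to 6.91 on the Ly-6D+ CpG arrays and 6.38 to 6.61 on the Ly-6D+ PBS arrays. The 20 neutrophil and granule genes, of which 0 passed after CpG in either population, had means of 8.52 to 8.74 and 8.39 to 8.69 in Ly-6D- CLPs after CpG and PBS. In that list Mpo, the peroxidase of primary granules, had group means between 9.15 and 10.93 and Elane, neutrophil elastase, between 8.31 and 8.92. The granule proteases Ctsg and Prtn3 had changes of 1.09 (SE 0.26, limma adjusted p = 0.104) and 1.04 (SE 0.23, adjusted p = 0.0787) in Ly-6D- CLPs, and Prtn3 passed without replicate 3 of Ly-6D- CpG (1.23, adjusted p = 0.0370). Between the populations after CpG 4 of the 20 passed as lower in Ly-6D+ CLPs, the direction of F13a1 and Anxa3, namely Ctsg (-2.36), Prtn3 (-1.93), Mpo (-1.78) and the G-CSF receptor Csf3r (-1.03), and after PBS Csf3r passed as lower (-1.53). The call of Csf3r after CpG ended without replicate 3 of Ly-6D- CpG (limma adjusted p = 0.0589) or of Ly-6D+ CpG (0.0762). The 11 measured megakaryocyte and platelet genes, a lineage that also makes F13a1, had means of 4.30 to 4.52 and 4.20 to 4.57 in Ly-6D- CLPs after CpG and PBS, and 0 of them passed after CpG. Of these genes 7 had a positive change in Ly-6D- CLPs and 4 a negative one (median 0.05). The largest by p were Selp, P-selectin (0.83, SE 0.22, limma adjusted p = 0.153), and the integrin chain Itgb3 (0.47, SE 0.13, adjusted p = 0.178). Pf4, a platelet chemokine, was 5.35 to 7.09 after CpG and 6.18 to 7.78 after PBS there, with overlap, and Itga2b had a mean of 3.68 under each treatment. Between the populations Gp9, a platelet glycoprotein, passed as lower in Ly-6D+ CLPs after PBS (-1.58), and Selp after CpG (-1.27). The 13 conventional dendritic cell genes, which share Itgax's usual cell type, had 0 past the test after CpG in either population, with medians of 0.02 in Ly-6D- and -0.02 in Ly-6D+ CLPs. Without replicate 3 of Ly-6D- CpG 2 of them passed as higher in Ly-6D- CLPs, the lysosomal amidase Naaa (1.66) and the transcription factor Batf3 (1.17), and Batf3 also passed in Ly-6D+ CLPs (0.94). Between the populations 8 of the 13 genes of this list were higher in Ly-6D+ CLPs, the direction of Itgax, and 5 lower, under each treatment. After PBS 0 passed as higher in Ly-6D+ CLPs and 1 as lower, Btla (-0.98). After CpG Irf4 passed as higher (1.19) and Batf3 as lower (-0.89). The list medians were 0.11 and 0.01. After CpG 1 passed as higher and 2 as lower without replicate 3 of Ly-6D- CpG, and 2 and 0 without replicate 3 of Ly-6D+ CpG.

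In the plasmacytoid dendritic cell list the genes that passed between the populations went in the direction of Itgax. Of its 11 measured genes 4 passed as higher in Ly-6D+ CLPs in the PBS comparison and 6 in the CpG comparison, with Siglech, a defining receptor of these cells, higher by 2.77 and 2.95. None passed after CpG in either population, except Ccr9, lower in Ly-6D- CLPs without replicate 3 of Ly-6D- CpG (-0.90). The B-lineage list had array means of 9.19 to 9.24 (PBS) and 8.52 to 8.74 (CpG) in Ly-6D+ CLPs and of 6.73 to 6.76 (PBS) and 6.09 to 6.42 (CpG) in the Ly-6D- population, the reverse of the order of F13a1. In Ly-6D- CLPs after CpG 10 of its 11 genes were lower, with a median log2 change of -0.64, and Rag2, a recombinase subunit, passed (-0.75, SE 0.11, limma adjusted p = 0.0221). All 8 measured CLP surface genes had a lower mean there too (median -0.45), and Il7r passed (-0.81, SE 0.13, limma adjusted p = 0.0300). Without replicate 3 of Ly-6D- CpG 5 B-lineage and 3 CLP surface genes passed as lower there. The Ly-6D+ population also had 9 of the 11 B-lineage genes lower after CpG and 2 higher (median -0.40), but 0 passed. With replicate 3 of Ly-6D- CpG left out, its B-lineage genes Vpreb3 (-1.35, limma adjusted p = 0.00619) and Pou2af1 (-1.89, 0.043) passed as lower. Neither passed without replicate 3 of Ly-6D+ CpG (0.117 and 0.186). Its CLP surface genes had a median change of -0.01, and 0 passed. After CpG 0 of the 8 erythroid, 0 of the 10 mast cell, basophil and eosinophil and 0 of the 14 T and NK genes passed in either population; without replicate 3 of Ly-6D- CpG the basophil protease Prss34 (-1.41) and the T cell adaptor Lat (-0.97) passed as lower in Ly-6D- CLPs. Between the populations, some genes of other lineages were lower in Ly-6D+ CLPs as F13a1 and Anxa3 were. The mast cell and basophil genes Cpa3 (-2.94 after PBS and -1.63 after CpG), Gata2 (-1.84 and -1.08) and Mcpt8 (-1.28 and -1.17) passed under both treatments, 3 of 10, as did the erythroid gene Car2 (-1.81 and -1.54), 1 of 8. Gata2 and Mcpt8 did not pass after CpG without replicate 3 of Ly-6D- CpG (limma adjusted p = 0.0837 and 0.0987), nor Mcpt8 without replicate 3 of Ly-6D+ CpG (0.0549). Without replicate 3 of Ly-6D- CpG, 1 gene of the mast cell, basophil and eosinophil list passed after CpG as higher in Ly-6D+ CLPs and 1 as lower. Of the T and NK genes Thy1 passed as higher (1.33 and 0.74), but not after CpG without replicate 3 of Ly-6D- CpG (0.0736) or of Ly-6D+ CpG (0.119). The part of these other cell types in the results on the 10 genes was not tested.

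**Figure D5:**
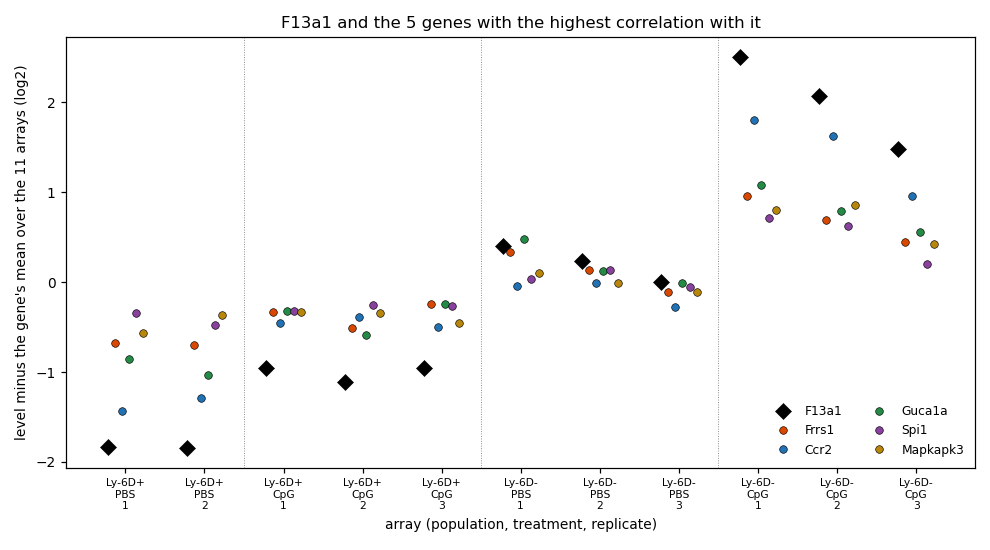
Level minus the gene's own mean over the 11 arrays (log2) of F13a1 (diamonds) and of the 5 genes with the highest correlation with it (circles), by array. On the 3 Ly-6D- CpG arrays F13a1 and the 5 genes are above their means, and replicate 3 is the lowest of these arrays for all 6 genes.

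F13a1 had the largest range of the 10 genes, and the genes most like it over the 11 arrays were sought among all 22180. The highest Pearson correlations were those of Frrs1, a ferric reductase family gene (0.985), Ccr2 (0.977), Guca1a, a guanylate cyclase activator (0.977), Spi1, which encodes the transcription factor PU.1 (0.974), and Mapkapk3, a stress kinase (0.972). Spi1 went from group means of 7.93 (PBS) and 8.07 (CpG) in Ly-6D+ CLPs to 8.39 and 8.86 in Ly-6D- CLPs. Ccr2 went from 5.78 and 6.70 to 7.04 and 8.61. Among the other members the correlation with F13a1 was 0.929 for Anxa3, 0.898 for Ms4a6c, 0.816 for Cst3, 0.721 for Pros1 and 0.687 for Lyz2. It was close to 0 for Sirpa (0.107), Fcgr3 (-0.045) and Cd33 (-0.079), and -0.600 for Itgax. The arrays fall into 4 groups, so these correlations describe an order of group levels and carry no test.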

How the data were processed

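RNA from sorted CLPs (5 ng, amplified with the NuGen SPIA method per the labels' protocols) was hybridised to Affymetrix mouse gene arrays. The authors deposited log2 values, which come from Partek's RMA as run by the authors (submitters' processing notes, which give no version or setting). RMA subtracts background, equalises the arrays' distributions by quantiles and summarises probes, so changes shared by all genes cannot be seen. The array medians lay between 3.85 and 3.96, and the number of arrays, 2 or 3 a group, limits the precision.

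Of 41345 probe sets, 23521 had exactly 1 symbol in the supplied probe table, 1814 several and 16010 none; the single-symbol sets gave 22180 genes, each by its brightest set. Groups came from the sample titles. A limma 3.58.1 model (R 4.3.3, 7 residual and 3.48 prior degrees of freedom) with a mean per group was fitted to all genes and 11 arrays, with Benjamini-Hochberg adjustment and a threshold of 0.05, and was checked on simulated data. Named list genes were up to 6 past the threshold with the smallest p per list and comparison, otherwise at most 2 as not past it, the 5 genes most correlated with F13a1, and a few defining markers; Lyz1 was added as the paralogue of Lyz2. Members, lists and rules were chosen with earlier results of these data known. Alternatives were the mean of probe sets, leaving out dim genes, trended robust eBayes, array weights, only the groups compared, further quantile normalisation, a replicate block, a threshold of 0.10 and leaving out each array; leaving out replicate 3 of each CpG group was added for the lists after the data had been seen. Tables and figures were made in Python 3.11.15 (pandas 2.3.3, matplotlib 3.10.9).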

Additional observations from a re-analysis of the deposited data

How the results depend on the processing

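For CpG in Ly-6D- CLPs, the count of 4 members past the threshold was 0 with the Ly-6D+ arrays kept out of the fit, 2 with the replicate block and between 0 and 5 on leaving out single arrays. Over all genes the 121 calls there became 4, 108 and, on leaving out single arrays, 5 to 309, and 425 with a trended robust eBayes, 236 without the dimmest genes and 207 with array weights. The 6 calls over all genes for CpG in Ly-6D+ CLPs became 0 with only the groups compared, 18 with a trended robust eBayes, 11 with the replicate block and 4 to 16 on leaving out single arrays. The 439 between the populations after PBS became 190 with only the groups compared, 185 to 416 on leaving out single arrays and 660 with a trended robust eBayes, and the 474 after CpG became 264, 264 to 516 and 726. The threshold of 0.10 gave 326, 10, 697 and 727 in these 4 comparisons. For the populations after CpG, the 4 members became 2 to 4 on leaving out single arrays. The counts for the populations after PBS (3), for CpG in Ly-6D+ CLPs (0) and for the difference of the responses (0) stayed within 1.5 times under the alternatives run. The cause of the changes was not tested. Deviations from the group means correlated above 0.1 in 2 of 15 same-numbered pairs, both of replicate 3, and in 0 of 30 differently numbered pairs. The medians were 0.036 and -0.04, and 8 of 11 arrays correlated best with an array of their own number. The main fit did not pair the arrays by number, and whether arrays of one number share a batch was not tested. With the replicate block Ms4a6c passed between the populations after PBS (-0.61, limma adjusted p = 0.0391).

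Changes that were not called and lay near 0 turned sign in places. For CpG in Ly-6D+ CLPs, Anxa3 was 0.002 with the replicate block and Itgax -0.046 with array weights, and leaving out 1 array gave ranges of -0.12 to 0.23 for Pros1, -0.40 to 0.031 for Anxa3, -0.19 to 0.28 for Fcgr3, -0.14 to 0.15 for Itgax and -0.007 to 0.17 for Sirpa. Between the populations after PBS, Cst3 was -0.001 with array weights and -0.021 with the replicate block, with ranges of -0.007 to 0.007 for Cst3 and -0.005 to 0.46 for Fcgr3. After CpG, Sirpa was -0.042 with array weights, and the ranges were -0.11 to 0.071 for Sirpa, -0.30 to 0.093 for Cd33 and -0.10 to 0.14 for Fcgr3. Also, Pros1 passed between the populations after CpG with array weights (adjusted p = 0.0247) or a trended robust eBayes (0.0385), and Cst3 with the latter (0.0319).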
